A study of Homo sapiens with 6 samples.

Results

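Ephrins are ligands bound to the cell surface, and Eph receptors are the receptor tyrosine kinases that bind them. The report follows 10 genes of this family, chosen by their gene names among the 58735 rows of the count table: the receptor genes EPHA1, EPHA2, EPHA4, EPHB2, EPHB3 and EPHB4, and the ephrin genes EFNA1, EFNA5, EFNB1 and EFNB2. The RNA came from Panc-1, an epithelial line from a human pancreatic cancer that is wild type by its label. For 3 libraries Panc-1 was grown for 72 h beside cancer-associated fibroblasts (CAF) overexpressing PAI-1, and for 3 libraries 72 h beside CAF without that addition. The CAF columns are headed CAF-NC, a suffix that the labels do not explain. They do not say either how the fibroblasts were made to overexpress PAI-1, where they came from, or how Panc-1 RNA was obtained free of theirs. The comparison asks how Panc-1 cells respond when their fibroblast partner makes more PAI-1.

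Ephrins of the A type are held in the membrane by a lipid (GPI) anchor and mostly bind EphA receptors, whereas ephrins of the B type span the membrane and mostly bind EphB receptors. EphA4 also binds B-type ephrins. Binding between neighbouring cells signals both ways, forward through the receptor's kinase and in reverse through the ephrin, and acts on the cytoskeleton, cell repulsion, tissue boundaries and migration. EphA2 is often abundant in carcinomas, pancreatic ones included. Without bound ephrin it can be phosphorylated on a serine by AKT and related kinases and promote migration, while binding of ephrin-A1 drives its tyrosine kinase signalling and its breakdown. Transcription of EPHA2 is known to respond to signalling through RAS and ERK.

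The promoters of 4 members are shown because these genes stand for the patterns below: EPHA2 had the clearest rise, EFNB1 the larger rise of the B-type ephrins, EPHB4 fell and EPHB2 did not pass the test. Each is the 250 bases before the start of the gene in RefSeq on GRCh38.p14, 5′ to 3′ along the gene's own strand. Capitals mark letters that match GCGNGGGCG (the EGR motif) or GGAATG (the TEAD motif) on either strand, and the windows of EFNB1 and EPHB4 hold neither.
EPHA2, chr1:16156070-16156319, minus strand: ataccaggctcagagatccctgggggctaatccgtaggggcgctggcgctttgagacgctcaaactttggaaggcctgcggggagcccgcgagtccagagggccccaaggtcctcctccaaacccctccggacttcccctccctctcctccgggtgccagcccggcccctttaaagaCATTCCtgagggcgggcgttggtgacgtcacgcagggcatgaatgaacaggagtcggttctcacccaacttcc
EFNB1, chrX:68828771-68829020, plus strand: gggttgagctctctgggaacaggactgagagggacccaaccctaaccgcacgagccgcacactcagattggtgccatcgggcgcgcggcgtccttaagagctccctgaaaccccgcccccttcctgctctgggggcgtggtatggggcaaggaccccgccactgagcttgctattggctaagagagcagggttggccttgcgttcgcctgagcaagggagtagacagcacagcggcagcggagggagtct
EPHB4, chr7:100827524-100827773, minus strand: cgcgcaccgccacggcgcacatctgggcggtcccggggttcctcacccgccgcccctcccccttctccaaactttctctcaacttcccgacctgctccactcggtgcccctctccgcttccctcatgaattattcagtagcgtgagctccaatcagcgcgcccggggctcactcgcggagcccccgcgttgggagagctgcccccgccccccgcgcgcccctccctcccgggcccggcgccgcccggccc
EPHB2, chr1:22710588-22710837, plus strand: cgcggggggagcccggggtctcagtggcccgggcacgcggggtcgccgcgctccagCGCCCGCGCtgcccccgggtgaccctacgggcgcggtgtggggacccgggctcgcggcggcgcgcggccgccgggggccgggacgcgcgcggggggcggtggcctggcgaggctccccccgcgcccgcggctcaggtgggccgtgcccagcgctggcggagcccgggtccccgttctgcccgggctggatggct
All 10 members matched a RefSeq promoter. The EGR motif was found in 3 of them, EPHA1, EPHB2 and EFNA1, against 8.25% of 27305 promoters of the same length. By GENCODE 29, whose gene starts can lie before those of RefSeq, all 250 bases of the EFNA1 window and the last 36 of the EPHA1 window, where its match lies 37 to 29 bases before the start, belong to exons of these genes. The windows of EPHA2, EFNB1 and EPHB3 hold 18, 24 and 1 such exon bases. The TEAD motif was found in EPHA2 alone, 73 to 68 bases before the start, against 11.9% of promoters. The SP motif GGGCGG, which can overlap the EGR motif, was found in all 10 members, against 42.3% of promoters. The AP-1 motif TGANTCA, the ETS motif CCGGAAG and the E-box CACGTG were found in none of the 10, against 6.6%, 8.82% and 6.49% of promoters, and TATAAA in EFNB2 alone, against 11.1%. The G and C content of the members' promoters ranged from 43.2% in EPHA4 to 84.8% in EPHB2, where the median of all promoters was 58%. These matches describe the letters and were not tested for binding.

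Library totals ranged from 13628508 to 16006880 counts, and 3 counts in a library correspond to 0.187 to 0.22 CPM (counts scaled to a million-count library). Of 14960 genes tested, 32.2% changed at an adjusted p under 0.05 (edgeR quasi-likelihood test with Benjamini-Hochberg adjustment over all genes), with 2571 genes (17.2%) higher and 2239 (15%) lower; scaling by library size alone, which shifted the median log2 fold change by -0.07, gave 1839 higher and 3182 lower. The keratin genes KRT8, KRT18 and KRT19 were between 208 and 1140 CPM on average in both groups. The 6 epithelial markers, dominated by these keratins, summed to 2046 to 2308 CPM with CAF overexpressing PAI-1 and 1781 to 1891 CPM with CAF. KRT7 averaged 12.5 CPM with CAF overexpressing PAI-1 and 8.16 CPM with CAF, and EPCAM 8.10 and 7.06 CPM in that order. CDH1, a defining epithelial gene, averaged 1.01 ± 0.33 CPM with CAF overexpressing PAI-1 and 1.67 ± 0.212 CPM with CAF (SD, n = 3 each). The defining fibroblast genes PDGFRA, PDGFRB, FAP, POSTN, DCN, LUM and COL1A2 were at or near 0, with 9 counts over the libraries with CAF overexpressing PAI-1 and 13 over those with CAF, and 10 of the 14 markers on the fibroblast list never reached 1 CPM. That list's summed level, nearly all of it from COL1A1, S100A4 and FBLN1, was 637 to 733 CPM with CAF overexpressing PAI-1 and 494 to 512 CPM with CAF. The extraction label is at odds with the sample titles, which set the groups used here. It gives a different cell line, Cal27, and an exposure either to DMSO or to the compound Stattic. As a check on the line, 6 squamous markers together had 20 counts with CAF overexpressing PAI-1 and 43 counts with CAF. These markers do not bear on the exposure, and whether it applies to these libraries was not tested. Replicate 2 with CAF overexpressing PAI-1 had the lowest share of mitochondrial counts, 3.78%, against 4.76% to 5.92% in the other libraries. In bulk RNA, a lower level cannot be told apart from fewer cells that express the gene.

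Among the 10 members, EPHA2 rose 2.05-fold, EPHB4 fell to 0.71 of its CAF level, and EFNA1, EFNB1 and EFNB2, of the 4 ephrins chosen, rose by smaller amounts than EPHA2. Of the 10, 8 passed the filter on low counts, and 6 of the 8 changed, 5 higher and 1 lower, where 32.2% of all genes tested changed. Without CAF replicate 1 the count was 3, 2 higher and 1 lower, and against a 1.2-fold change it was 2, EPHA2 and EPHB4. EPHA1 is among the 5 and, at 2 to 18 counts a library, lay at the edge of the filter, whose minimum count was 10. Its place in that count thus follows in part from the filter. The median log2 fold change of the 8 was 0.28, against 0.00 for all genes tested. The members had been chosen with results of these libraries known, so these counts are a description.

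**Figure D1:**
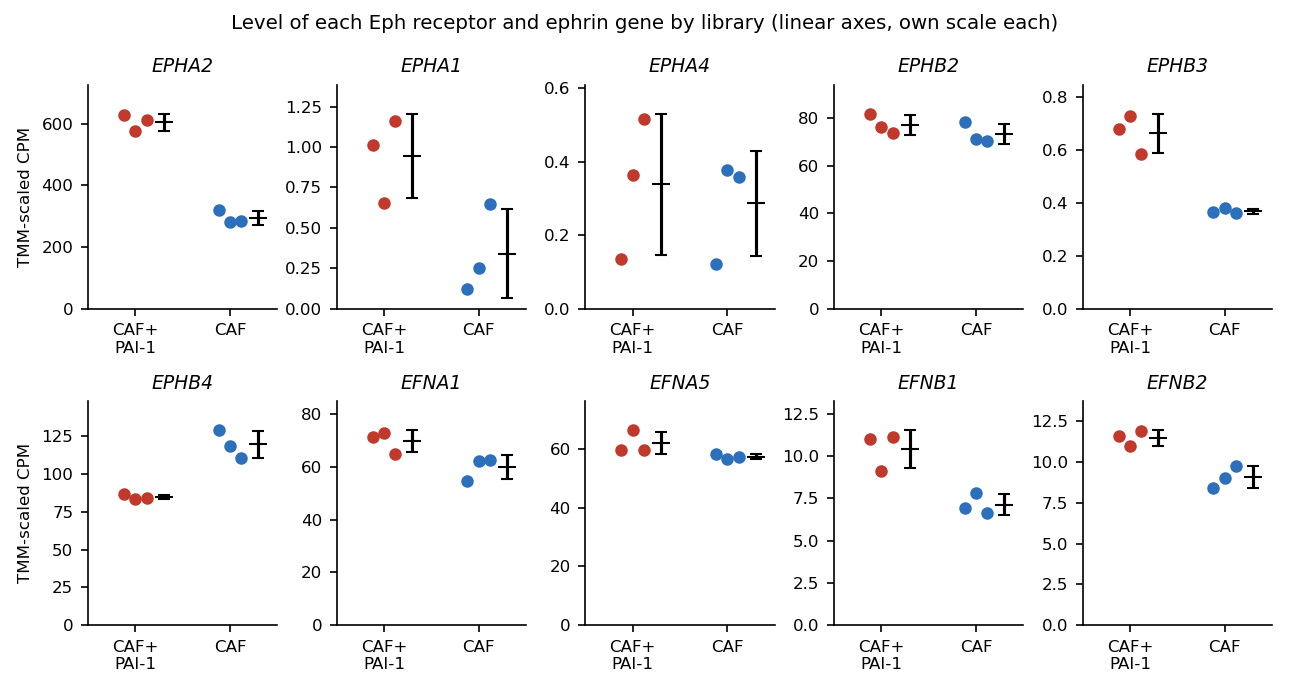
TMM-scaled CPM (vertical axes, linear from 0, each with its own scale) of the 10 members in each library, with CAF overexpressing PAI-1 on the left in red and CAF on the right in blue. Points are libraries and black bars show the mean and SD of 3. The groups lie furthest apart in EPHA2, at 574 to 628 CPM with CAF overexpressing PAI-1 and 279 to 321 CPM with CAF, and EPHB4 is the member that is lower with CAF overexpressing PAI-1.

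EPHA2 (ENSG00000142627; chromosome 1, 16124337 to 16156087, minus strand, GENCODE 29 on GRCh38), the receptor for ephrin-A1 and other A-type ephrins, was the most abundant member. It stood at 628, 574 and 611 CPM with CAF overexpressing PAI-1 and at 321, 279 and 284 CPM with CAF. Every library with CAF overexpressing PAI-1 was far above every CAF library. EPHA2 rose 2.05-fold (95% interval 1.89 to 2.22), a log2 fold change of 1.04 (SE 0.058, edgeR adjusted p = 6.9e-16). By p-value it ranked 40 among the 14960 genes, and by the size of its log2 fold change it ranked 448. The rise was past the threshold in each of the 16 alternatives, with log2 fold changes between 0.97 and 1.10.

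EPHB4 (ENSG00000196411; chromosome 7, 100802565 to 100827521, minus strand), the receptor for ephrin-B2 best known from the division between arteries and veins, went the other way. It stood at 86.6, 83.8 and 84.5 CPM with CAF overexpressing PAI-1 and at 129, 119 and 111 CPM with CAF. The groups did not overlap, and the CAF libraries were the more spread. EPHB4 fell to 0.71 of its CAF level (95% interval 0.65 to 0.776), a log2 fold change of -0.49 (SE 0.063, edgeR adjusted p = 1.27e-07), and the fall held in all 16 alternatives, between -0.56 and -0.44. SLC12A9, a protein-coding gene on the other strand, shares 69 of the 6435 exon bases of EPHB4, and its own log2 fold change was -0.16 (SE 0.087) and did not pass. No source used here states whether counting used strand.

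EPHB2 (ENSG00000133216; chromosome 1, 22710839 to 22921500, plus strand), a receptor for B-type ephrins that sorts cells in the intestinal crypt, showed no call. It stood at 82.0, 76.3 and 73.8 CPM with CAF overexpressing PAI-1 and at 78.5, 71.4 and 70.5 CPM with CAF. The ranges overlapped, and the log2 fold change was 0.07 (SE 0.067, edgeR adjusted p = 0.43). Its 95% interval, -0.06 to 0.21, takes in no change as well as a small rise, and none of the alternatives called it.

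The other receptors among the members were near the limit of detection. EPHA1 (ENSG00000146904; chromosome 7, 143390289 to 143408892, minus strand), a receptor for ephrin-A1, had 15, 9 and 18 counts with CAF overexpressing PAI-1 and 2, 4 and 9 counts with CAF, so that the lowest library of the higher group and the highest library of the lower group had the same count. Its log2 fold change of 1.52 carried an SE of 0.54 and a 95% interval of 0.42 to 2.61 (edgeR adjusted p = 0.0259). The call was lost with DESeq2 (adjusted p = 0.0764), against a 1.2-fold change (0.0758), and without replicate 1 or 3 with CAF overexpressing PAI-1 (0.0768 and 0.117) or replicate 1 or 2 with CAF (0.159 and 0.103), and its adjusted p over all 14 alternatives that tested it ranged from 0.00784 to 0.159. Moreover, EPHA1 shares 82 of its 4733 exon bases with ZYX, a focal adhesion gene on the opposite strand that was at 381 ± 29.1 CPM with CAF overexpressing PAI-1 and 153 ± 4.39 CPM with CAF (SD, n = 3 each), and the part of ZYX in the EPHA1 counts was not tested.

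EPHB3 (ENSG00000182580; chromosome 3, 184561784 to 184582409, plus strand), another B-type receptor, had 10, 10 and 9 counts with CAF overexpressing PAI-1 and 6, 6 and 5 counts with CAF. The counts did not overlap, but the gene missed the filter, and with no filter beyond 1 count its log2 fold change of 0.84 (SE 0.62) did not pass (edgeR adjusted p = 0.455). EPHA4 (ENSG00000116106; chromosome 2, 221418027 to 221574202, minus strand), which binds ephrins of both types, had 2, 5 and 8 counts with CAF overexpressing PAI-1 and 2, 6 and 5 counts with CAF. It missed the filter as well and had a log2 fold change of 0.27 (SE 0.80, edgeR adjusted p = 0.861) without it. Changes in these genes were not detectable at this depth.

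**Figure D2:**
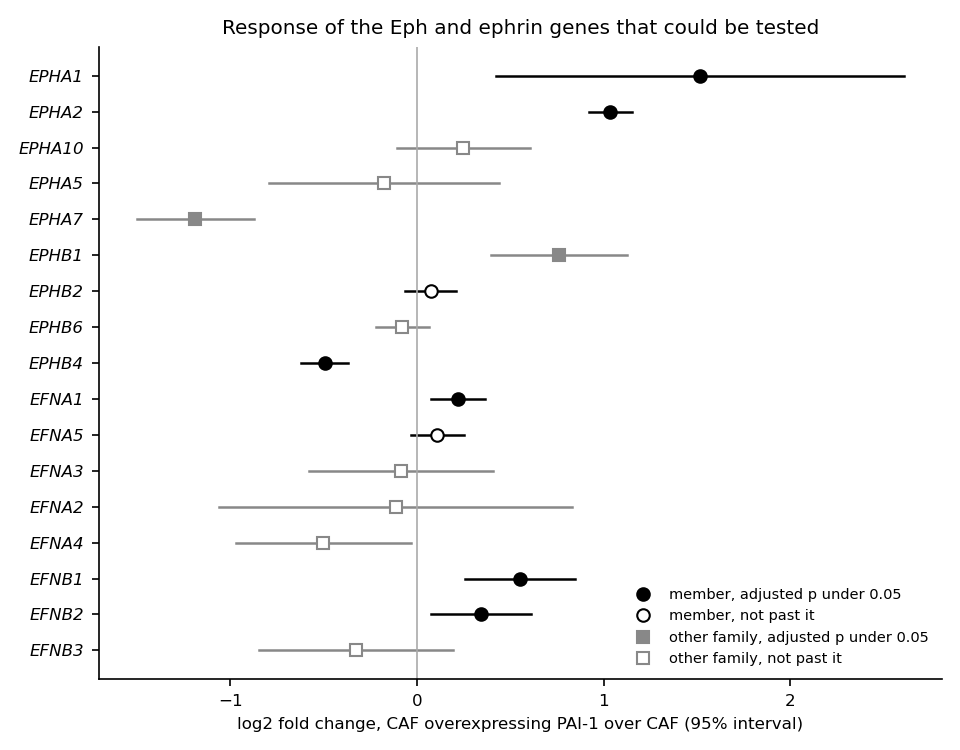
Log2 fold change of CAF overexpressing PAI-1 over CAF with its 95% interval (horizontal axis) for the 17 family genes that passed the filter, grouped down the page as EPHA, EPHB, EFNA and EFNB genes. Circles are members and grey squares are other family genes, filled where the edgeR adjusted p is under 0.05; EPHA2 at 1.04 and EPHA7 at -1.19 lie furthest from 0 among those with narrow intervals.

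Among the ligands, EFNA1 (ENSG00000169242; chromosome 1, 155127460 to 155134857, plus strand), which encodes the main partner of EphA2 and is known to be induced by TNF, was the most abundant. It stood at 71.6, 72.8 and 65.0 CPM with CAF overexpressing PAI-1 and at 54.7, 62.2 and 62.8 CPM with CAF. The groups came within a few CPM of each other without overlapping. EFNA1 rose 1.17-fold (95% interval 1.05 to 1.29), a log2 fold change of 0.22 (SE 0.071, edgeR adjusted p = 0.0154). The call was lost with library size alone (adjusted p = 0.0918), without CAF replicate 1 (0.132) and against a 1.2-fold change (0.965); over its 16 alternatives the adjusted p ranged from 0.0097 to 0.965.

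EFNA5 (ENSG00000184349; chromosome 5, 107376889 to 107670895, minus strand), a ligand of several EphA receptors known from axon guidance, was at a level like that of EFNA1 in CPM. It stood at 59.7, 66.3 and 59.7 CPM with CAF overexpressing PAI-1 and at 58.4, 56.5 and 57.1 CPM with CAF. The groups did not overlap, as was true of 43.4% of all genes tested, but the gap was small. The log2 fold change of 0.11 (SE 0.069, 95% interval -0.03 to 0.25) did not pass (edgeR adjusted p = 0.237).

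Both B-type ephrins among the members were higher. EFNB1 (ENSG00000090776; chromosome X, 68828997 to 68842147, plus strand), the gene of craniofrontonasal syndrome, stood at 11.0, 9.15 and 11.1 CPM with CAF overexpressing PAI-1 and at 6.92, 7.81 and 6.62 CPM with CAF. Replicate 2 with CAF overexpressing PAI-1 was the nearest to the CAF libraries and still above them. EFNB1 rose 1.47-fold with a log2 fold change of 0.55 (SE 0.144, 95% interval 0.26 to 0.85, edgeR adjusted p = 0.00314). Against a 1.2-fold change the call was lost (adjusted p = 0.0603), the one loss among its 15 alternatives, which gave adjusted p from 0.000866 to 0.0603.

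EFNB2 (ENSG00000125266; chromosome 13, 106489731 to 106535662, minus strand), the ligand of EphB4, stood at 11.6, 11.0 and 11.9 CPM with CAF overexpressing PAI-1 and at 8.44, 9.01 and 9.78 CPM with CAF. The groups did not overlap, and EFNB2 rose 1.27-fold (95% interval 1.05 to 1.53), a log2 fold change of 0.34 (SE 0.131, edgeR adjusted p = 0.0429). This value lies just inside the threshold and was lost in 9 of 16 alternatives, DESeq2 and library size alone among them, and without any one of the libraries except CAF replicate 3; the adjusted p ranged from 0.0423 to 0.449 and the log2 fold change from 0.28 to 0.40. EFNB2 and EPHB4 thus had opposite signs, 0.34 and -0.49 on the log2 scale. None of the other EPHB genes tested fell. They were at 0.76 for EPHB1, 0.07 for EPHB2 and -0.08 for EPHB6, of which EPHB1 alone passed.

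**Figure D3:**
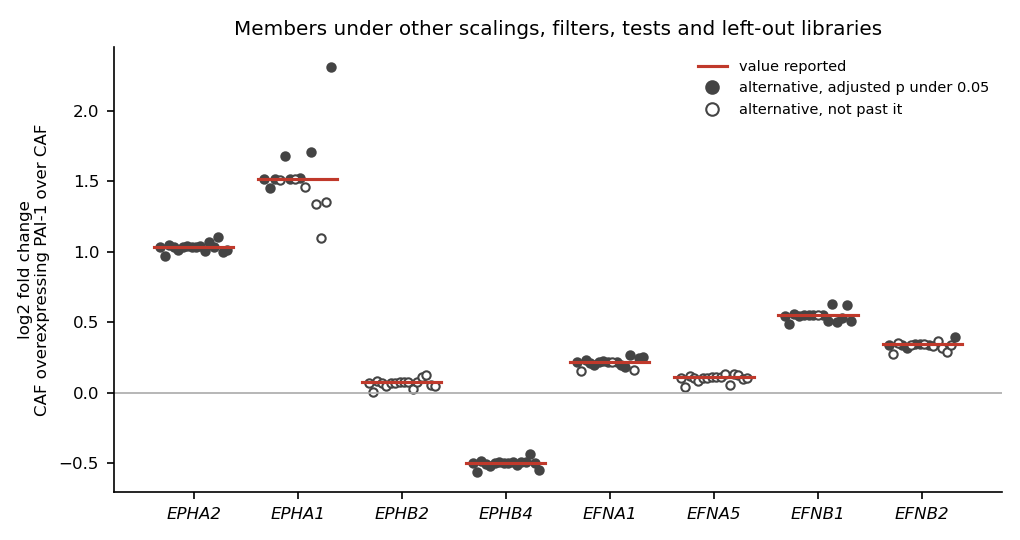
Log2 fold change of CAF overexpressing PAI-1 over CAF (vertical axis) of the 8 members that passed the filter, with the value reported as a red line and each alternative scaling, filter, test or left-out library as a point, filled where its adjusted p is under 0.05. EPHA2 and EPHB4 stay filled throughout, while EPHA1 spreads from 1.10 to 2.31 and EFNB2 loses the call in 9 of 16.

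Compared per length (TPM, counts per base of length scaled to the same sum in each library, computed with the union of a gene's exons), the order of the members was nearly the same in both groups. With CAF overexpressing PAI-1, EPHA2 was at 522 ± 15.3 TPM, EFNA1 at 98.7 ± 6.87, EPHB4 at 47.4 ± 0.526, EFNA5 at 39.0 ± 3.08, EPHB2 at 22.2 ± 1.12, EFNB1 at 11.3 ± 1.03 and EFNB2 at 8.21 ± 0.228 TPM (SD, n = 3). With CAF, EPHA2 was at 262 ± 24.7 TPM, EFNA1 at 87.0 ± 5.18, EPHB4 at 68.7 ± 6.20, EFNA5 at 37.1 ± 1.26, EPHB2 at 21.7 ± 1.66, EFNB1 at 7.92 ± 0.631 and EFNB2 at 6.67 ± 0.431 TPM (SD, n = 3). Within each group none of these neighbours in the order overlapped between libraries. EPHA1, EPHB3 and EPHA4 were all under 1 TPM, and EPHA1 and EPHB3, which change places between the groups, overlapped in both. With the median length of the coding transcripts in place of the union of exons, an alternative chosen after seeing the data, EPHB2 came before EFNA5 in both groups and EPHA4, at 0.718 and 0.636 TPM, before EPHA1 and EPHB3, so those places rest on the length used.

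By the union of exons, EPHA2 made up most of the receptor transcripts in both groups. Its share of the summed TPM of the 14 Eph receptor genes was 81.7% ± 0.724 with CAF overexpressing PAI-1 and 64.9% ± 0.638 with CAF (SD, n = 3 each). The share of EPHB4 was 7.43% ± 0.171 with CAF overexpressing PAI-1 and 17.1% ± 0.628 with CAF, so that the level of EPHA2 was 11.0 ± 0.346 times that of EPHB4 in the first group and 3.81 ± 0.165 times in the CAF group. The summed receptor level was 639 ± 13.4 TPM with CAF overexpressing PAI-1 and 403 ± 34.5 TPM with CAF. The receptors other than EPHA2 summed to 117 ± 2.47 TPM with CAF overexpressing PAI-1 and to 141 ± 10.00 TPM with CAF, so the higher total came from EPHA2. With the median coding transcript length, the EPHA2 share was 66.0% with CAF overexpressing PAI-1 and 47.5% with CAF. By that length it was the greater part of the sum only with CAF overexpressing PAI-1. The level of EPHA2 was then 6.797 ± 0.214 times that of EPHB4 with CAF overexpressing PAI-1 and 2.36 ± 0.102 times with CAF.

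The ligands differed less in sum. The 8 ephrin genes summed to 176 ± 7.46 TPM with CAF overexpressing PAI-1 and 162 ± 5.80 TPM with CAF (SD, n = 3 each), and EFNA1 held 56.2% ± 1.60 of the sum with CAF overexpressing PAI-1 and 53.6% ± 1.30 with CAF. The level of EPHA2 per length was 5.30 ± 0.461 times that of EFNA1 with CAF overexpressing PAI-1 and 3.03 ± 0.476 times with CAF, and with the median coding transcript length 3.69 ± 0.321 times with CAF overexpressing PAI-1 and 2.11 ± 0.331 times with CAF.

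**Figure D4:**
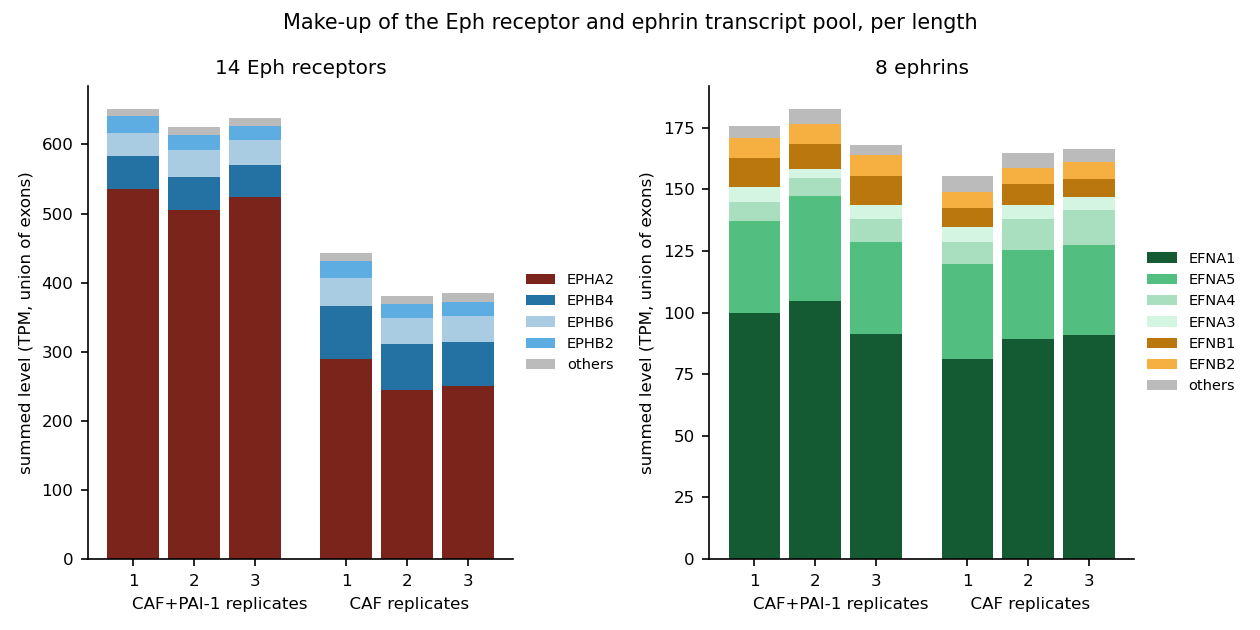
Summed TPM (vertical axes, from 0, per length of the union of exons) of the 14 Eph receptor genes on the left and the 8 ephrin genes on the right, in each library, with the 3 replicates with CAF overexpressing PAI-1 left of the 3 with CAF. Colours split each bar by gene; EPHA2 holds 81.7% of the receptor bar with CAF overexpressing PAI-1 and 64.9% with CAF, while EFNA1 holds 56.2% of the ephrin bar with CAF overexpressing PAI-1 and 53.6% with CAF.

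Among the other 12 genes of the family, 9 passed the filter, 1 rose and 1 fell, or 22.2% against the 32.2% of all genes tested. EPHA7, a receptor for A-type ephrins, stood at 4.54, 4.65 and 4.53 CPM with CAF overexpressing PAI-1 and at 10.1, 10.2 and 11.0 CPM with CAF. It fell to 0.439 of its CAF level, a log2 fold change of -1.19 (SE 0.154, edgeR adjusted p = 1.74e-07), the largest of the family's falls among genes tested. EPHB1, a receptor for B-type ephrins, stood at 7.92, 9.08 and 7.56 CPM with CAF overexpressing PAI-1 and at 6.25, 3.72 and 4.46 CPM with CAF, and rose 1.69-fold (log2 fold change 0.76, SE 0.179, adjusted p = 0.00117). Both calls held in all 15 alternatives that tested these genes.

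The rest of the family gave no call. EPHB6, a receptor without kinase activity, was at 53.0 ± 2.53 CPM with CAF overexpressing PAI-1 and 55.9 ± 2.60 CPM with CAF (SD, n = 3 each; log2 fold change -0.08, SE 0.071). EFNA4, an A-type ephrin, had -0.50 (SE 0.231, edgeR adjusted p = 0.0968), and the adjusted p was 0.0314 without CAF replicate 1 and between 0.0314 and 0.333 over its 15 alternatives. EPHA10, EPHA5, EFNA2, EFNA3 and EFNB3 had log2 fold changes of 0.25, -0.18, -0.11, -0.09 and -0.32. EPHA3, EPHA6 and EPHA8 missed the filter, and EPHA3 had 0, 0 and 1 counts with CAF overexpressing PAI-1 and 4, 2 and 2 counts with CAF.

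The kinases and adaptors that bind or follow activated Eph receptors went both ways. Of 22 such genes, 4 rose and 3 fell, or 31.8% against the 32.2% of all genes tested, with a median log2 fold change of -0.01; library size alone gave 3 higher and 5 lower. ABL2, a kinase of the ABL family that shapes the actin cytoskeleton, rose by 0.79 (SE 0.055), GRB10 by 0.29 and CRK, an adaptor, by 0.21 on the log2 scale. ANKS1A, an adaptor that binds EphA2 and EphA8 and slows receptor breakdown, had -0.35 (SE 0.078), PIK3CA -0.34 and GRB7 -1.17 (SE 0.36), the last at under 2 CPM on average in both groups. SRC, FYN and YES1, the SRC-family kinases that Eph receptors engage, had -0.09, -0.31 and 0.13 and did not pass.

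Of 12 genes that bind ephrin-B tails or act in reverse signalling, 1 rose and 2 fell, or 25% against the 32.2% of all genes tested, with a median log2 fold change of -0.13. PICK1, a PDZ protein that binds ephrin-B and Eph tails, rose by 0.40 (SE 0.099) on the log2 scale, while DVL2, a Dishevelled protein, had -0.40 (SE 0.071) and PARD6G, a polarity protein, -0.71 (SE 0.192). SDCBP, which encodes syntenin, had -0.03 and did not pass. Of 16 proteases and phosphatases of the pathway, 14 were tested, 4 rose and none fell, or 28.6% against the same 32.2%, with a median log2 fold change of 0.06; library size alone gave 3 higher and 1 lower. ADAM17, a protease that sheds many surface proteins, rose by 0.39 (SE 0.074), PTPN1, a phosphatase that acts on EphA receptors, by 0.26 (SE 0.063) and PTPRF, which encodes the phosphatase LAR, by 0.24 (SE 0.061). ADAM10, the protease that cleaves ephrins bound by Eph receptors, had -0.07 (SE 0.053) and did not pass.

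By a rule that takes the called member with the largest log2 fold change, the genes most like EPHA1 over the 6 libraries were U2AF1, LOX and ZNF274. Likeness is the root-mean-square distance between log2 CPM values centred on each gene's mean, among genes of at least 5 CPM on average, and it was 0.301, 0.382 and 0.409 for these genes, against a median of 0.837 for 10952 genes. U2AF1, the closest, did not itself pass (log2 fold change 1.57, SE 0.50, edgeR adjusted p = 0.0867). LOX rose by 0.80 (SE 0.193) and ZNF274 by 1.14 (SE 0.104) on the log2 scale. Since EPHA1 rests on few counts, the same was done for EPHA2, chosen after its values were seen. Closest to it were TNFRSF12A, the receptor for TWEAK, at a distance of 0.0443, HAS3, a hyaluronan synthase, at 0.0563, and PXDC1 at 0.0658, against a median of 0.526. On average TNFRSF12A was at 282 CPM with CAF overexpressing PAI-1 and 139.9 CPM with CAF. HAS3 averaged 169.8 CPM with CAF overexpressing PAI-1 and 79.1 CPM with CAF, and PXDC1 40.3 CPM with CAF overexpressing PAI-1 and 18.5 CPM with CAF.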

How the data were processed

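RNA was poly(A)-selected and sequenced in 6 libraries, 3 per group. The authors deposited 1 table of whole-number counts per gene, and 0 columns of it were left aside. Per the submitters' processing notes, RSEM, Bowtie2, BWA and hg19 were used, in roles and versions they leave out. How whole counts were obtained, and how shared reads and strand were treated, is likewise unstated. All 58735 gene identifiers are in GENCODE 29 (GRCh38), which gave positions and exon lengths, and 27 names turned into dates were restored.

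edgeR 4.0.16 under R 4.3.3 gave the test of the counts (filterByExpr with minimum count 10 and minimum total 15, TMM scaling, robust glmQLFit, glmQLFTest, no covariates, CAF overexpressing PAI-1 minus CAF), with Benjamini-Hochberg adjustment over 14960 genes. "Rose", "fell" and "changed" mean an adjusted p under 0.05. CPM values are TMM-scaled; SE is the log2 fold change over the root of F. Errors are SD over 3 libraries. Whether replicates were separate cultures beyond the label "biological" is not stated, so the p-values rest on library-to-library spread, which may be technical. Libraries of a group differed by more than sampling noise (chi-square per degree of freedom 2.58 to 9.51). Replicate 2 with CAF overexpressing PAI-1 gave 9.51 against replicate 1 and 6.63 against replicate 3, and the other pairs 2.58 to 3.72. The test was checked on simulated data. The alternatives tried were scaling by library size alone or by RLE, 3 other filters, DESeq2 1.42.0, limma-voom (limma 3.58.1), no robust estimation, glmTreat, the replicate block and each library left out.

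Members and gene lists were chosen with earlier results of these data known. Every member is named; of other family genes, those tested; of other lists, at most the 3 with the smallest p per direction, while SRC, FYN, YES1, SDCBP, ADAM10 and KDR were named after their values were seen. Endothelial and leukocyte markers had 35 and 19 counts with CAF overexpressing PAI-1 and 29 and 34 counts with CAF, over 6 genes each. Some results are not reported here.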

Additional observations from a re-analysis of the deposited data

How the results depend on the processing

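Over 17 family genes and up to 16 alternatives each, 237 of 260 values kept their direction and their side of the threshold, 19 lost the call, 1 gained it and 3 turned round. The 3 that turned round were of genes with no call: EPHA5 (log2 fold change 0.030) and EFNA3 (0.084) without replicate 2 with CAF overexpressing PAI-1, and EFNA2 (0.094) without replicate 3 of that group. Leaving out each library gave -0.48 to 0.030 for EPHA5, -0.21 to 0.084 for EFNA3 and -0.38 to 0.094 for EFNA2. The losses were 9 for EFNB2, 6 for EPHA1, 3 for EFNA1 and 1 for EFNB1. The number of members that changed was 6, and 2 with glmTreat against a 1.2-fold change, which asks for a larger change by its construction, as did the count over all genes, 4810 and 1611 with glmTreat. Leaving out each library gave 3 to 6 members and 3942 to 4673 genes, with 3 members without CAF replicate 1, and the cause was not tested. Library size alone moved the median log2 fold change by -0.07 and gave 1839 genes higher and 3182 lower, where 2571 were higher and 2239 lower, and 4 members changed, 3 higher and 1 lower; among kinases and adaptors 3 were then higher and 5 lower.

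The replicate numbers gave no clear pairing of the libraries. Deviations of same-numbered libraries from their group means correlated at 0.00234 to 0.0122 across genes. With CAF overexpressing PAI-1, replicates 2 and 3 correlated best with their own number, at 0.0122 and 0.0063, and replicate 1 with another number. With the replicate block 5069 genes changed, and 6 members, 5 higher and 1 lower. Depth limits EPHA1, EPHA4 and EPHB3, at 2 to 18 counts a library.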

Other observations

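Set beside the Eph receptors, the other receptor tyrosine kinases went both ways. Of 40 genes listed, 23 were tested, 4 rose and 6 fell, or 43.5% against the 32.2% of all genes tested. EGFR, the receptor for EGF and its relatives, stood at 509.7 ± 59.5 CPM with CAF overexpressing PAI-1 and 398 ± 17.4 CPM with CAF (SD, n = 3 each; log2 fold change 0.36, SE 0.064, edgeR adjusted p = 7.15e-05). MERTK, a receptor of the TAM family, rose by 0.39 (SE 0.077) and FGFR1 by 0.31 (SE 0.066) on the log2 scale. PTK7, a pseudokinase of planar cell polarity and WNT signalling, had -0.51 (SE 0.067, adjusted p = 2.35e-07), IGF1R -0.30 (SE 0.067) and FGFR3 -0.55 (SE 0.139). Among the 10 that changed, the log2 fold change of KDR, a VEGF receptor at 1.85 ± 0.605 CPM with CAF overexpressing PAI-1 and 0.83 ± 0.221 CPM with CAF, was the one as large as that of EPHA2, 1.13 (SE 0.371) against 1.04. KDR had 36, 26 and 19 counts with CAF overexpressing PAI-1 and 16, 15 and 8 counts with CAF. Its CAF replicate 3 lay under the filter's minimum count of 10 and its other libraries above it, so its change rests on few counts. Library size alone gave 4 higher and 7 lower among these kinases.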
